A study of Bombyx mori with 3 samples.

Results

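CPG6-rich cuticle cells of the embryonic silk gland of the silkworm Bombyx mori were described by single-cell RNA sequencing. The cells were chosen by a measured value: in each of them the genes CPG6 (cuticular protein glycine-rich 6) and CPH4 (cuticular protein hypothetical 4) together made at least 2% of the unique molecular identifiers (UMIs, each the count of 1 captured RNA molecule). Of 4880 cells of the embryonic library that passed the quality filters, 278 met this rule, or 5.70% (exact binomial 95% interval 5.06% to 6.38%, counting error only). The other 4602 cells of the same library served for comparison. The series holds 18864 deposited cell barcodes in all.

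Silk glands of the Nistari strain were sampled 8 days after egg laying (E8D), on day 1 of the first larval instar (1L1D) and at the first larval molt (1LM). The labels name no genetic change and no treatment, and they carry an entry that reads as in vitro expansion although the protocol describes glands dissociated directly. Each stage was 1 library from a mixture of about 2000 whole glands, so the cells of a library came from many animals and all regions of the gland. With 1 library per stage and no replicates, no test was possible, and every interval below covers counting error only. Between stages, age and library cannot be told apart.

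Insect cuticle is built from chitin fibres held in a matrix of cuticular proteins, which epithelial cells secrete at their apical side. Most of these proteins carry the Rebers and Riddiford (RR) consensus, a stretch that binds chitin. RR-2 proteins are known mainly from hard cuticle and RR-1 proteins from soft cuticle, while glycine-rich (CPG) and hypothetical (CPH) proteins are defined by their composition. In the silk gland, the anterior duct is lined by cuticle, and the middle and posterior regions make the silk proteins sericin and fibroin.

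The E8D table held 12579661 UMIs in 5351 barcodes, of which 471 were removed because mitochondrial genes made over 30% of their UMIs or because their UMIs per detected gene lay more than 2 SD from the mean of all barcodes. The library was shallow. CPG6-rich cells had a median of 774.5 UMIs (500 to 23513) and 287.5 genes, and the other cells had a median of 736.5 UMIs (500 to 24102) and 266 genes. Mitochondrial genes made a median of 14.2% of UMIs in CPG6-rich cells and 14.4% in the other cells. The 36 CPG6-rich cells with 5000 or more UMIs held 62.4% of all UMIs of the 278, so sums over the cells are weighted towards these. The E8D library shared 12 barcodes with 1L1D and 10 with 1LM, none of them a CPG6-rich cell.

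The values of the 2 genes that chose the cells are given as a description. CPG6 and CPH4 together made from the limit of 2% up to 19.9% of UMIs per CPG6-rich cell, with a median of 4.34%, against a median of 0.161% in the other cells. Just inside the limit, the 3 lowest cells had shares of 2.002%, 2.02% and 2.02%, and just outside it the 3 highest had 1.996%, 1.99% and 1.98%. The limit cut through a continuous range: 60 cells lay between 1.5% and 2%, and 42 lay between 2% and 2.5%. CPG6 carried most of the signal, with 39903 UMIs against 4150 of CPH4 in the CPG6-rich cells. CPG6 was found in each of the 278 cells, while CPH4 was found in 225.

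**Figure D1:**
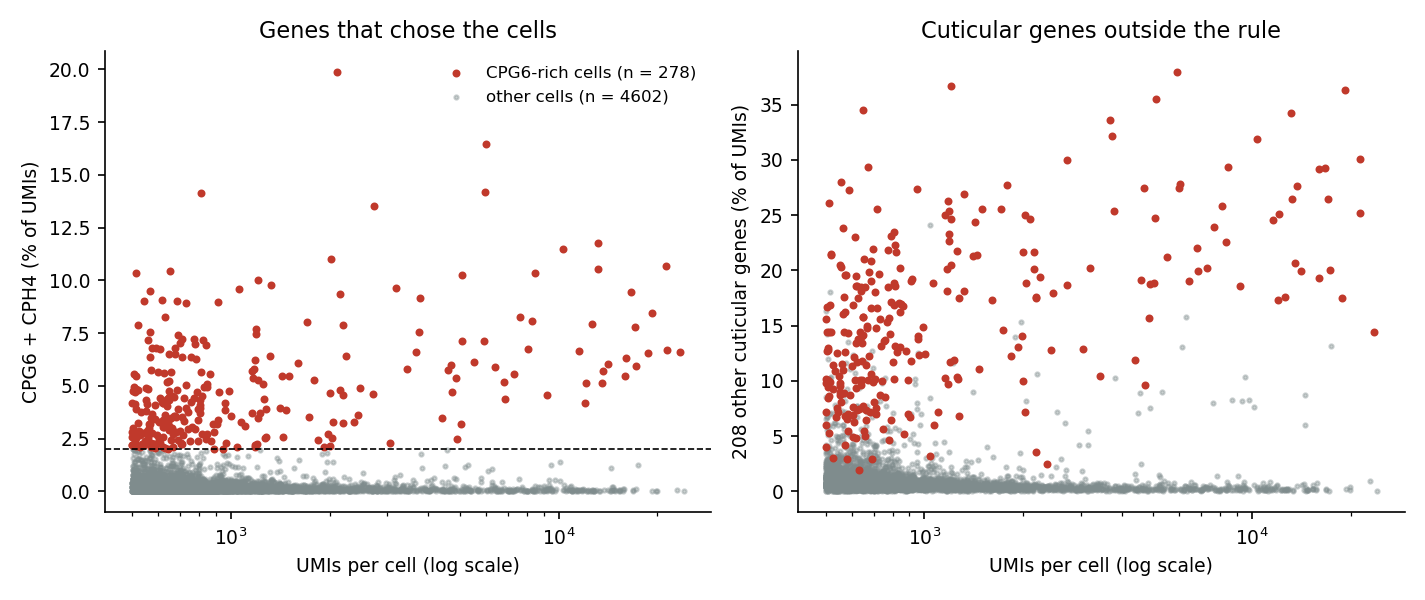
Each point is 1 cell of the E8D library, with UMIs per cell on a log axis, CPG6-rich cells in red (n = 278) and other cells in grey (n = 4602). The left panel shows the share of CPG6 + CPH4 with the limit of 2% as a dashed line, and the right panel shows 208 other cuticular genes, whose median share was 14.8% in CPG6-rich cells and 0.626% in other cells, with overlap between the groups.

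The label was then checked on cuticular genes that took no part in the rule. These 208 genes made 21.3% of all UMIs of the CPG6-rich cells and 0.879% of those of the other cells. Among them LOC101736156, described below, alone made 13.1% of UMIs in CPG6-rich cells and 0.415% in other cells. The sum thus rests largely on very few genes. Per cell their share ran from 1.90% to 38.0% with a median of 14.8% in CPG6-rich cells, and from 0% to 24.1% with a median of 0.626% in other cells. The 2 groups overlapped, and some cells below the limit were also rich in cuticular RNA. These genes were counted in the same cells that CPG6 and CPH4 chose, so the check is a description of the cells and not a test.

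A gene was called higher or lower where its counts per 1000000 UMIs (CPM), summed over each group of cells, differed at least 2-fold and the exact 95% interval of the ratio left out equality. Of 5225 genes with at least 50 UMIs in the kept cells, CPG6 and CPH4 left out, 1030 were higher in CPG6-rich cells, which is 19.7%, and 708 were lower, which is 13.6%. These shares are repeated beside the lists below as the background, and since the cells were chosen from the same counts nothing is read from them. The 50 UMIs were summed over both groups. A gene rare in other cells thus reached them only where CPG6-rich cells held many of its UMIs, which favours a higher call. Scaling by edgeR's TMM factors moved the median log2 ratio of all tested genes to -0.36, against 0.04 by CPM, and the share of higher calls among all calls to 34.8%, against 59.3%.

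Only 18 of the 208 cuticular genes reached 50 UMIs. Some did so mainly through the CPG6-rich cells, such as CPT3 with 43 UMIs there and 10 in other cells. For such genes the filter favoured a higher call, so the count below is partly set by it. Of these 18, 15 were higher in CPG6-rich cells (background 19.7%), 1 was lower (background 13.6%) and 2 were neither, with a median log2 ratio of 5.02, against 0.04 over all tested genes. Of the 208 genes, 172 had no UMI in a CPG6-rich cell, so the cuticular RNA came from few members of each family. Without the cells of 5000 or more UMIs, 12 cuticular genes could be tested and 10 were higher, where 540 of all 4160 tested genes were. Of the 53 RR-1 genes 3 were tested and 2 were higher, and of the 79 RR-2 genes 7 were tested and 6 were higher. All 5 tested CPH genes were higher, and none of the 5 CPF and CPFL genes had a UMI in these cells.

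The most abundant transcript of the CPG6-rich cells was not a gene of the rule. LOC101736156, annotated as cuticle protein CPG43, a putative glycine-rich protein, reached 130709 CPM in CPG6-rich cells and 4153 CPM in other cells, a log2 ratio of 4.98 (4.96 to 5.00). Per cell it made 0.253% to 26.3% of UMIs, with a median of 7.76%, and it was found in every one of the 278 cells. A later RefSeq annotation lists this locus as a miscellaneous RNA and not as protein-coding. CPG6 itself had 59119 CPM in CPG6-rich cells and 1700 CPM in other cells. These are counts from 3' ends, not scaled by transcript length.

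The RR-2 genes CPR90 and CPR91 were far less abundant. CPR90 had 6617 CPM in CPG6-rich cells and 153 CPM in other cells, and CPR91 had 267 CPM in CPG6-rich cells and 6.93 CPM in other cells. Their log2 ratios were 5.43 (5.33 to 5.53) and 5.27 (4.78 to 5.78). Both genes thus differed by about the same factor although their levels were far apart. The RR-1 genes CPR56 and CPR55 had 296 and 264 CPM in CPG6-rich cells, against 8.38 and 7.90 CPM in other cells.

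Among the CPH genes, CPH21 had 1375 CPM in CPG6-rich cells and 41.1 CPM in other cells, and CPH27 had 362 CPM in CPG6-rich cells and 15.8 CPM in other cells. CPH18 and CPH28 had the highest ratios of the cuticular genes named by rank, with log2 ratios of 5.63 (4.95 to 6.37) and 5.60 (4.79 to 6.50). They rested on 113 and 79 UMIs in CPG6-rich cells and on 21 and 15 UMIs in other cells. A single cell held 29.2% of the CPH18 UMIs of the CPG6-rich cells.

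CPH43 and CPR24 broke the pattern. CPH43 had 6808 CPM in CPG6-rich cells and 2663 CPM in other cells, a log2 ratio of only 1.35 (1.31 to 1.40), and after thinning each cell to 500 UMIs it was found in 85.3% of CPG6-rich cells and 52.8% of other cells. With TMM factors 14 cuticular genes were higher, where 685 of all 5225 genes were, and CPH43 was not called. The RR-1 gene CPR24 was the only tested cuticular gene lower in CPG6-rich cells, with 7.41 CPM against 67.4 CPM in other cells, a log2 ratio of -3.19. CPG19 and CPR122 were called in neither direction, with log2 ratios of 0.52 and 0.33.

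**Figure D2:**
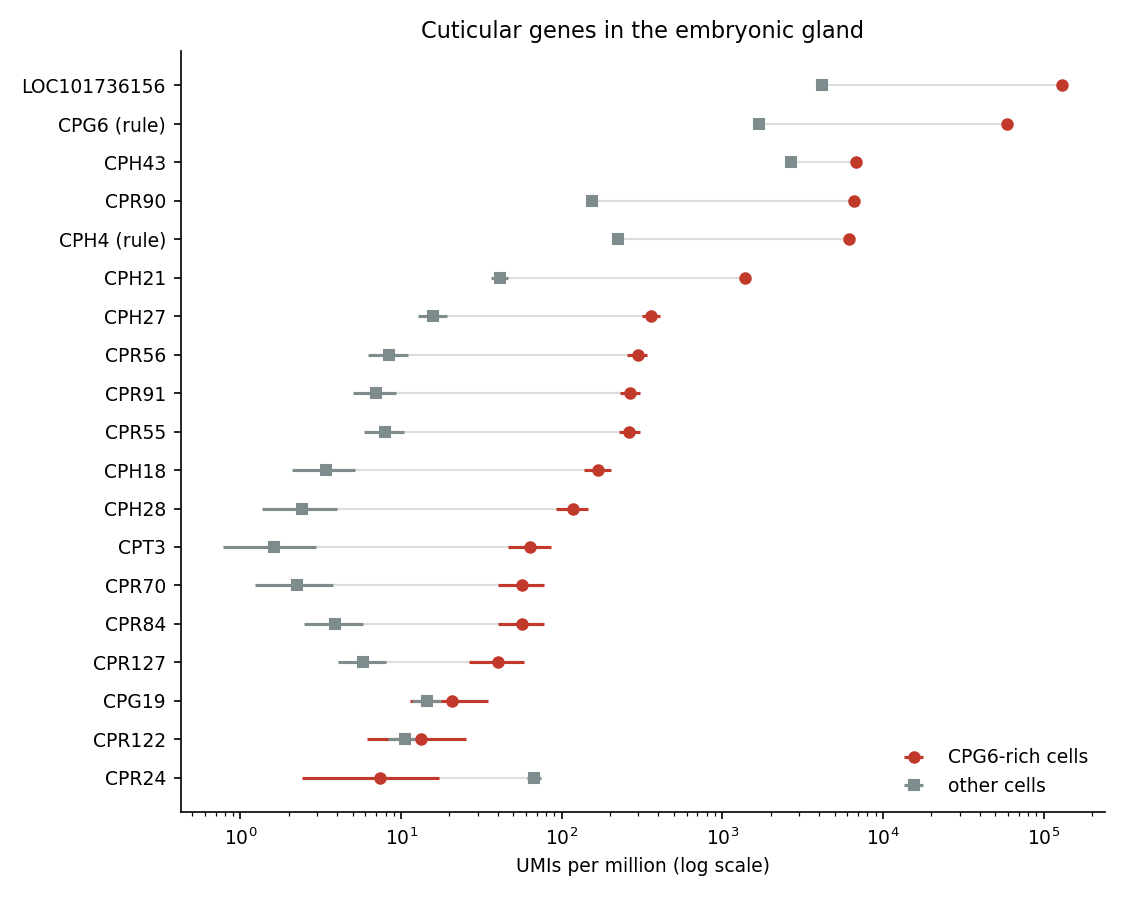
Levels of 17 tested cuticular genes and of the 2 genes of the rule in CPM on a log axis, CPG6-rich cells as red circles and other cells as grey squares, with exact Poisson 95% intervals. For 14 of the 17 genes the red point lies at least 2-fold to the right, CPR24 lies to the left, and CPH43 shows a short distance at a high level.

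The proportions of the cuticular RNAs were then compared between the groups. For every 100 UMIs of LOC101736156, CPR90 had 5.06 UMIs (4.91 to 5.22) in CPG6-rich cells and 5.05 UMIs (4.19 to 6.03) in the 1128 other cells that had no UMI of CPG6 or CPH4, while over all 4602 other cells it had 3.70 UMIs (3.46 to 3.94). The intervals thus overlapped between CPG6-rich cells and the 1128 cells, and the proportion was lower over all other cells. CPH43 did not keep its proportion, with 5.21 UMIs per 100 in CPG6-rich cells, 64.6 (60.6 to 68.8) in the 1128 cells and 64.1 in all 4602. Of the 15 cuticular genes called higher, 12 had log2 ratios between 4 and 6. RNA set free from broken cells gives UMIs in droplets of all cells, and its part in the levels of the other cells was not tested.

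Shares of cells with a UMI were compared after thinning each cell to 500 UMIs, which left out no cell since all had at least 500. LOC101736156 was then found in 99.6% of CPG6-rich cells and 71.5% of other cells. Without thinning, CPR90 was found in 81.3% of CPG6-rich cells and 14.5% of other cells. With thinning it was found in 71.9% of CPG6-rich cells and 9.87% of other cells. A UMI of LOC101736156 was therefore found in most cells of both groups.

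The next group of genes acts on chitin. Of 14 such genes 8 were tested and all 8 were higher in CPG6-rich cells (background 19.7%), with a median log2 ratio of 4.96. Some reached 50 UMIs mainly through the CPG6-rich cells, such as LOC101740062 with 57 UMIs there and 5 in other cells. The count of 8 is therefore partly set by the filter. Without the cells of 5000 or more UMIs 3 could be tested, and all 3 were higher, where 540 of all 4160 tested genes were. Obstructors and gasp, chitin-binding proteins that in Drosophila organise the cuticle matrix, led the group. The obstructor-E gene LOC101743739 had 1948 CPM in CPG6-rich cells and 50.1 CPM in other cells, and LOC733010, annotated as gasp, had 815 CPM in CPG6-rich cells and 21.0 CPM in other cells. Chitin synthase A (LOC100884166), which makes the chitin of the epidermis and its derivatives, had 101 CPM in CPG6-rich cells and 5.00 CPM in other cells, a log2 ratio of 4.33 (3.70 to 5.00). The chitinase-like genes ChiR1 and LOC101736080 had 66.7 and 113 CPM in CPG6-rich cells, against 1.77 and 6.61 CPM in other cells. The chitinase genes Chi and Chi-h had no UMI in the CPG6-rich cells.

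LOC101740062, another obstructor-E gene, had the highest ratio of all genes with at least 50 UMIs in these cells. It had 57 UMIs in 31 of the 278 CPG6-rich cells and 5 UMIs in 5 of the 4602 other cells. Its log2 ratio was 6.71 (5.40 to 8.39). The interval was wide because the gene was rare. Without the cells of 5000 or more UMIs the log2 ratio was 4.34.

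Among genes with at least 50 UMIs in CPG6-rich cells, the 20 with the highest ratios held 5 cuticular genes. CPH18, CPH28, CPR90 and CPR91 were among these, and 3 of the 20 were of the chitin list (LOC101740062, LOC733010 and LOC101743739). The log2 ratios of the 20 lay between 5.23 and 6.71. Tested genes with fewer UMIs in CPG6-rich cells were not ranked, such as CPT3 with 43 UMIs and a log2 ratio of 5.30. LOC778506, uncharacterized, was abundant, with 8786 CPM in CPG6-rich cells and 183 CPM in other cells. LOC101740121, annotated as a proline-rich extensin-like protein, had 490 CPM in CPG6-rich cells and 9.35 CPM in other cells. The glycosyltransferase genes UGT41A2 and UGT40A1, whose enzymes join sugars to small molecules, had 504 and 188 CPM in CPG6-rich cells and 11.8 and 5.00 CPM in other cells. Y-c, of the yellow family of secreted proteins, had 634 CPM in CPG6-rich cells and 16.9 CPM in other cells. LOC692400, related to angiotensin-converting enzyme and known as inducible by ecdysteroid, had 105 CPM in CPG6-rich cells and 2.26 CPM in other cells.

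Genes for tanning and for protease inhibitors were less uniform. Of 4 tested tanning genes, Aanat and Y-b were higher, with log2 ratios of 3.97 (3.67 to 4.28) and 3.54 (3.19 to 3.89), and Y-d was lower, at -2.92 (background 19.7% higher and 13.6% lower). Aanat encodes an arylalkylamine N-acetyltransferase that in the silkworm limits dark pigment of the cuticle. Of 35 protease inhibitor genes 9 were tested and 6 were higher (background 19.7%). LOC101738162, annotated as a fungal protease inhibitor F-like gene, was the most abundant, with 3388 CPM in CPG6-rich cells and 241 CPM in other cells. Its relative LOC101738434 had 270 CPM in CPG6-rich cells and 245 CPM in other cells and was not called. The 6 Osiris genes, which in insects belong to cuticle secretion and tracheal development, had no UMI in any kept E8D cell.

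Of 5 tested genes of the cytoskeleton and of polyamines, 3 were higher (background 19.7%), while the actin gene LOC101741610 and Oaz were not called. The alpha-tubulin Tua1 had 15256 CPM in CPG6-rich cells and 2516 CPM in other cells, a log2 ratio of 2.60 (2.56 to 2.64). LOC732996, ornithine decarboxylase, the enzyme that starts polyamine synthesis, had 3879 CPM in CPG6-rich cells and 402 CPM in other cells. The beta-tubulin Tub1 had 647 CPM in CPG6-rich cells and 316 CPM in other cells, and with TMM factors it was no longer called. The junction genes for DE-cadherin (LOC100127100) and crumbs (LOC101745387), which mark polarised epithelia, had 176 and 59.3 CPM in CPG6-rich cells, against 31.1 and 9.83 CPM in other cells. They were the 2 called higher of 4 tested junction genes (background 19.7%), while Inx2 and LOC101744232 were not called. Without the cells of 5000 or more UMIs 1 of 2 testable junction genes was higher, where 540 of all 4160 genes were. After thinning each cell to 500 UMIs neither of 2 was, where 306 of all 2938 genes were. Of 7 tested V-ATPase subunits, which pump protons, 4 were higher in CPG6-rich cells (background 19.7%). With TMM factors 2 were, where 685 of all 5225 genes were higher. Without the cells of 5000 or more UMIs 2 were, where 540 of all 4160 genes were.

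Genes of protein synthesis and export were lower or not called. Of 12 secretory pathway genes, all tested, 8 were lower in CPG6-rich cells (background 13.6%) and none was higher, with a median log2 ratio of -1.23. With equal weight for every cell 5 were lower, where 460 of all 5225 genes were, and after thinning 5 were, where 209 of 2938 were. With CPG6 and CPH4 left out of the totals 6 were lower and 1 was higher, where 601 and 1127 of all 5225 genes were. The translocon subunit Sec61alpha had 123 CPM in CPG6-rich cells and 394 CPM in other cells. Calreticulin (Crt), a chaperone of the same list, was not called, with 667 CPM in CPG6-rich cells and 337 CPM in other cells. Ribosomal protein genes made 13.6% of UMIs in CPG6-rich cells and 24.2% in other cells. Of 78 tested, 19 were lower by CPM (background 13.6%). With TMM factors 67 were, where 1283 of all 5225 genes were lower, and with equal weight for every cell 1 was, where 460 were. Without the cells of 5000 or more UMIs 1 of 77 tested was lower, where 283 of all 4160 genes were.

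The ecdysone response genes, which carry the hormone signal for molting, were mostly near the 2-fold limit or under it. Of 8 tested, 2 were higher (background 19.7%) and 1 was lower (background 13.6%). Hr3 and Ftz-f1 were higher, with 17 and 12 UMIs in CPG6-rich cells and log2 ratios of 1.36 (0.49 to 2.15) and 1.17 (0.12 to 2.10), and neither was called with TMM factors, with equal weight for every cell or without the cells of 5000 or more UMIs. The receptor EcR had 144 CPM in CPG6-rich cells and 73.3 CPM in other cells. Br-c was lower, with 23.7 CPM in CPG6-rich cells and 252 CPM in other cells, a log2 ratio of -3.41 (-4.22 to -2.71).

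**Figure D3:**
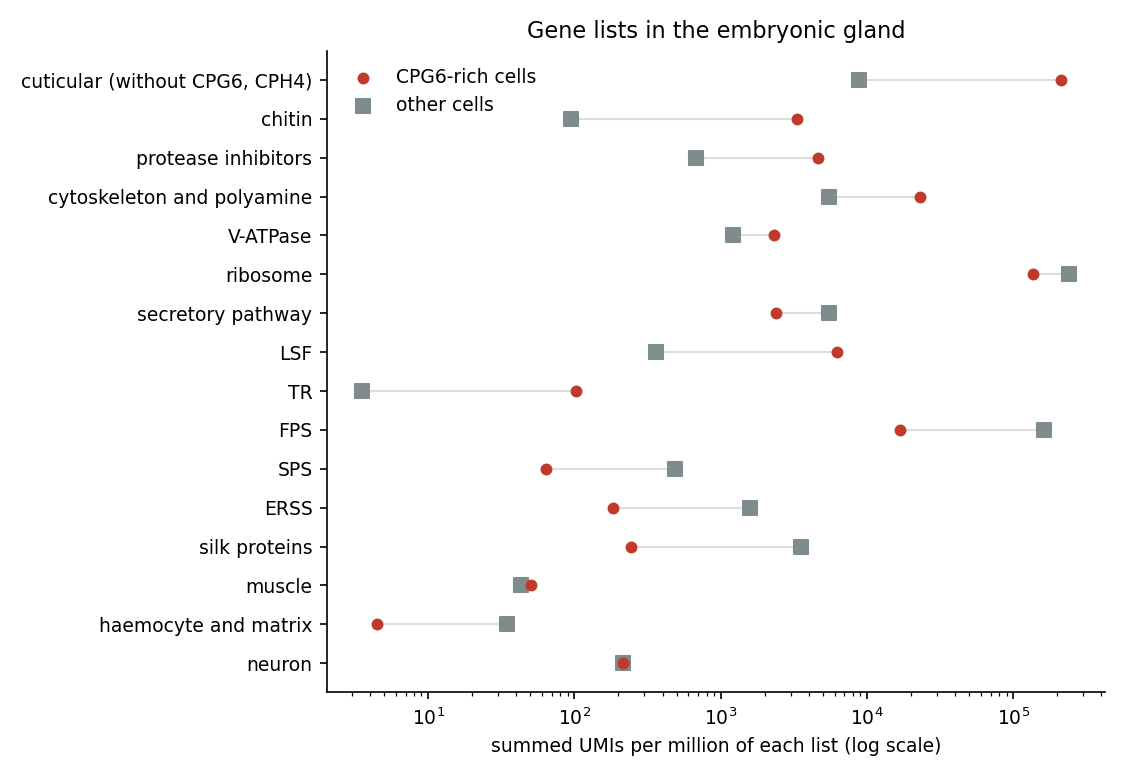
Summed CPM of 16 gene lists on a log axis, CPG6-rich cells as red circles and other cells as grey squares at E8D. Cuticular, chitin, LSF and TR lists lie to the right in CPG6-rich cells, and the FPS, SPS, ERSS, silk protein, ribosome and secretory lists lie to the left.

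Markers of the cell types that the study named were then read in the CPG6-rich cells. The study picked these markers on the same libraries, so their direction is no independent evidence. It lists CPG6 and CPH4 themselves among leading markers of the anterior gland clusters. Which of the study's cell types the CPG6-rich cells belong to was not tested. Markers of liquid silk fibrosis cells (LSF, of the anterior gland) summed to 6270 CPM in CPG6-rich cells and 363 CPM in other cells, and all 5 tested of 6 were higher (background 19.7%). Among them, LOC105841947 had 2652 CPM in CPG6-rich cells and 114 CPM in other cells. It is annotated as a facilitated transporter of the blood sugar trehalose, while the study's text lists it as dynein-related. Markers of traction forces cells (TR) summed to 102 CPM in CPG6-rich cells and 3.55 CPM in other cells, and none of the 6 reached 50 UMIs. The TR sum rested on 69 UMIs in CPG6-rich cells and 22 UMIs in other cells.

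Markers of the silk-making regions were lower. Those of fibroin protein-synthesizing cells (FPS, 4 of 4 tested lower, background 13.6%) summed to 16777 CPM in CPG6-rich cells and 162329 CPM in other cells, nearly all from LOC101745332, an uncharacterized gene that 1 annotation calls a reverse transcriptase, with 16436 CPM in CPG6-rich cells and 160346 CPM in other cells. All 5 markers of endoplasmic reticulum stress signaling cells (ERSS) and all 5 silk protein genes were lower (background 13.6%), with median log2 ratios of -3.09 and -3.06. After thinning each cell to 500 UMIs all 5 ERSS markers and 2 of 5 silk protein genes were lower, where 209 of all 2938 genes were. Their medians were then -1.76 and -0.80. The FPS median likewise was -1.63 after thinning, against -3.11, with 4 of 4 lower. The fibroin light chain Fib-l had 206 CPM in CPG6-rich cells and 3213 CPM in other cells. Of sericin protein-synthesizing cell (SPS) markers 2 of 3 tested were lower (background 13.6%), at a sum of 63.7 CPM in CPG6-rich cells and 485 CPM in other cells. Per cell, FPS markers made 0.0517% to 27.8% of UMIs with a median of 3.85% in CPG6-rich cells, and 0.110% to 62.4% with a median of 14.9% in other cells.

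Markers of other tissues were read in the same way. Muscle markers summed to 50.4 CPM in CPG6-rich cells and 42.9 CPM in other cells, with 2 of 4 markers at 0 in CPG6-rich cells. Neuron markers summed to 215 CPM in CPG6-rich cells and 213 CPM in other cells. Of 3 tested neuron markers 1 was higher (background 19.7%), LOC101739206, annotated as the synaptic protein Snap25, with 28 UMIs in CPG6-rich cells and 84 UMIs in other cells, a log2 ratio of 1.62, and it was not called without the cells of 5000 or more UMIs. Markers of haemocytes and matrix summed to 4.44 CPM in CPG6-rich cells and 34.8 CPM in other cells, with PPO1, LOC101736620 and Let-2 at 0 in CPG6-rich cells. None of the 6 midgut markers had a UMI in either group. Of 4 fat body markers 3 were tested. LOC101735732, a low molecular mass lipoprotein gene, was higher (background 19.7%), with 3913 CPM in CPG6-rich cells and 315 CPM in other cells. The fat body gene for apolipophorins, LOC100862791, was lower (background 13.6%), with 3 UMIs in CPG6-rich cells and 137 UMIs in other cells. Its log2 ratio was -2.31, and it was not called without the cells of 5000 or more UMIs. The other tested marker, LOC101746088, was not called. LOC101735732 was found in 230 of the 278 CPG6-rich cells, and the part of fat body RNA in its level was not tested. Chitin metabolism cell (CM) markers summed to 216 CPM in CPG6-rich cells and 19.0 CPM in other cells. Of 3 tested CM markers LOC105842274 and LOC101740197 were higher (background 19.7%), and LOC101746489 was lower, with 0 UMIs in CPG6-rich cells and 62 UMIs in other cells. Epithelial cell remodeling cell (ECR) markers summed to 37.0 CPM in CPG6-rich cells and 2.26 CPM in other cells. The ECR sum rested on 25 and 14 UMIs, and none of the 5 markers reached 50 UMIs.

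Among genes with at least 50 UMIs in other cells, the 10 with the lowest ratios had 0 to 16 UMIs in CPG6-rich cells. LOC101746790, uncharacterized, had 23.7 CPM in CPG6-rich cells and 521 CPM in other cells, a log2 ratio of -4.46, but with a limit of 1% for CPG6 + CPH4 the ratio was 0.19. LOC110386924, whose annotations disagree (trypsin inhibitor-like or autophagy-related), had 19.3 CPM in CPG6-rich cells and 341 CPM in other cells. LOC101738479 (xanthine dehydrogenase, of purine breakdown), LOC101742496 (glucosylceramidase, of the lysosome) and LOC100101171 (scolexin precursor, a serine protease) had 4 UMIs each in CPG6-rich cells and 802, 791 and 810 in other cells. LOC101743853 had 0 UMIs in CPG6-rich cells, which allows up to 4.44 CPM, and its 563 UMIs in other cells came from 8 cells.

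The CPG6-rich cells varied with depth. In the 175 with under 1000 UMIs, LOC101736156 had 69134 CPM and the FPS marker LOC101745332 had 64251 CPM. In the 36 with 5000 or more UMIs, LOC101736156 had 154330 CPM and LOC101745332 had 2599 CPM. The cuticular genes outside the rule made 13.4% of UMIs in the shallow cells and 24.5% in the deep ones. Across the 278 cells the cuticular share rose with UMIs per cell (Spearman rho 0.50), and among the 103 cells with 1000 or more UMIs rho was 0.37. All cells share 1 library, so these are descriptions.

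Levels followed the share of CPG6 + CPH4 on both sides of the limit. LOC101736156 had 43597 CPM in the 170 cells with 1% to 2%, 71819 CPM in the 126 with 2% to 4% and 143482 CPM in the 152 with 4% or more. Tua1 had 13665 CPM, 15029 CPM and 15305 CPM in the same 3 classes, and LOC101745332 had 66232 CPM, 52684 CPM and 8575 CPM. Below 0.5%, LOC101736156 had 2179 CPM and Tua1 had 1894 CPM in 3987 cells. Cells just under the limit thus already held much cuticular RNA and a Tua1 level near that of the CPG6-rich cells.

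**Figure D4:**
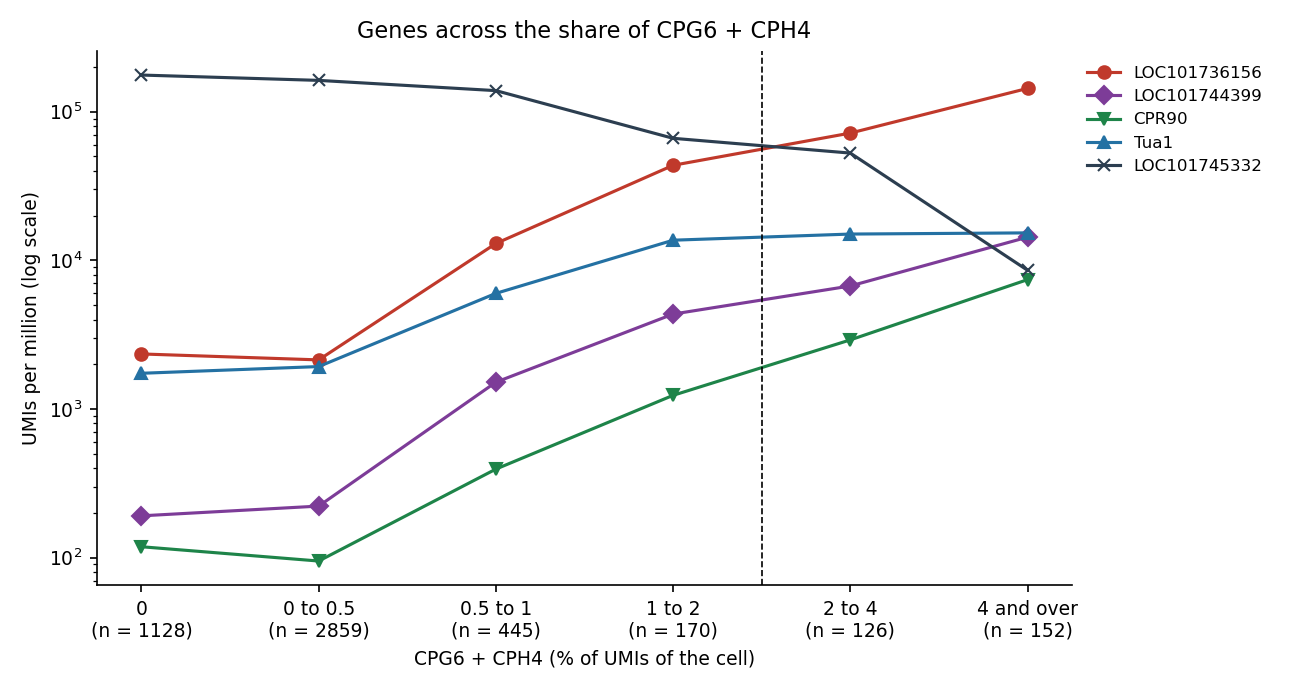
CPM (log axis) of 5 genes in 6 classes of kept E8D cells by their share of CPG6 + CPH4, from 0 on the left to 4% and over on the right, with the number of cells below each class and the limit of 2% as a dashed line. The cuticular genes LOC101736156 and CPR90 rise by class from 0.5% upwards, and so does LOC101744399, which is not on the cuticular list. Over all cells LOC101744399 had 12968 CPM in CPG6-rich cells and 427 CPM in other cells. Tua1 is level from 1% to 2% onwards, and the FPS marker LOC101745332 falls.

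To see where the cells lie without the genes of the rule, the 4880 kept cells were clustered with CPG6 and CPH4 left out. Of 7 clusters, 2 held 271 of the 278 CPG6-rich cells. One held 224 of them among 634 cells with a median of 632 UMIs, so that 35.3% of the cluster were CPG6-rich. The second held 47 among 67 cells with a median of 7591 UMIs, and its 10 leading genes included LOC101740062, chitin synthase A (LOC100884166) and CPH28. The remaining 20 cells of the second cluster had a median cuticular share of 8.24%, and 9 of them had between 1% and 2% of CPG6 + CPH4. At resolution 0.4 a single cluster of 518 cells held 273 of the 278. The 2 clusters differed in depth, and its part in their separation was not tested.

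The rule was last applied to the libraries it was not made on. At 1L1D, 63 of 4339 kept cells met it, or 1.45% (1.12% to 1.85%), with shares of 2.01% to 4.12%. These 63 cells had a median of 11460 UMIs, against 1824.5 UMIs in the other 4276 cells, and a median of 5.73% mitochondrial UMIs, against 15.8%. Of the 20 leading genes of E8D, 17 had at least 50 UMIs in the kept cells of 1L1D. Of these, 16 were also higher in the 63 cells than in the other cells of 1L1D, and none of the 20 was lower. Of all 6808 tested genes 6.43% were higher and 10.1% were lower. The same rule chose the 63 cells, so the count is a description and not a test. The ratios were smaller, at 2.17 (log2) for CPR90 and 1.36 for LOC101736156. LOC101736156 had 84896 CPM in the 63 cells and 33014 CPM in the other cells of 1L1D. The 208 cuticular genes made 20.8% of UMIs in the 63 cells and 6.42% in the other cells.

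The order of the cuticular genes differed between the CPG6-rich cells of the 2 stages. CPH21 had 53258 CPM in the 63 cells of 1L1D and 1375 CPM in the 278 cells of E8D. CPR90 had 37091 CPM at 1L1D and 6617 CPM at E8D. LOC101736156 had 84896 CPM at 1L1D and 130709 CPM at E8D. LOC101740062 had no UMI in the 63 cells, and LOC733010 had 17.4 CPM at 1L1D and 815 CPM at E8D. Over all kept cells of each library, CPH21 had 16162 CPM at 1L1D and 172 CPM at E8D, and CPR90 had 9301 and 788 CPM. LOC733010 had 4.58 and 98.9 CPM. The shifts of CPH21, CPR90 and LOC733010 were thus not particular to the CPG6-rich cells. LOC101736156 went the other way over all kept cells, with 34945 CPM at 1L1D and 16572 CPM at E8D. The silk protein genes were lower in the CPG6-rich cells of both libraries, 5 of 5 in each (background 13.6% at E8D and 10.1% at 1L1D). After thinning 2 of 5 were lower at E8D, where 209 of all 2938 genes were.

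At 1LM, 0 of 7125 kept cells met the rule, which allows a share of up to 0.0421%, and the highest share of CPG6 + CPH4 was 1.35%. CPG6 had 75.9 CPM over all kept cells of 1LM. Other genes of the E8D cells were present at that stage: over all kept cells CPR90 had 3051 CPM and CPH43 had 6434 CPM. CPT3, a Tweedle protein with 63.7 CPM in the CPG6-rich cells of E8D, had 3541 CPM.

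**Figure D5:**
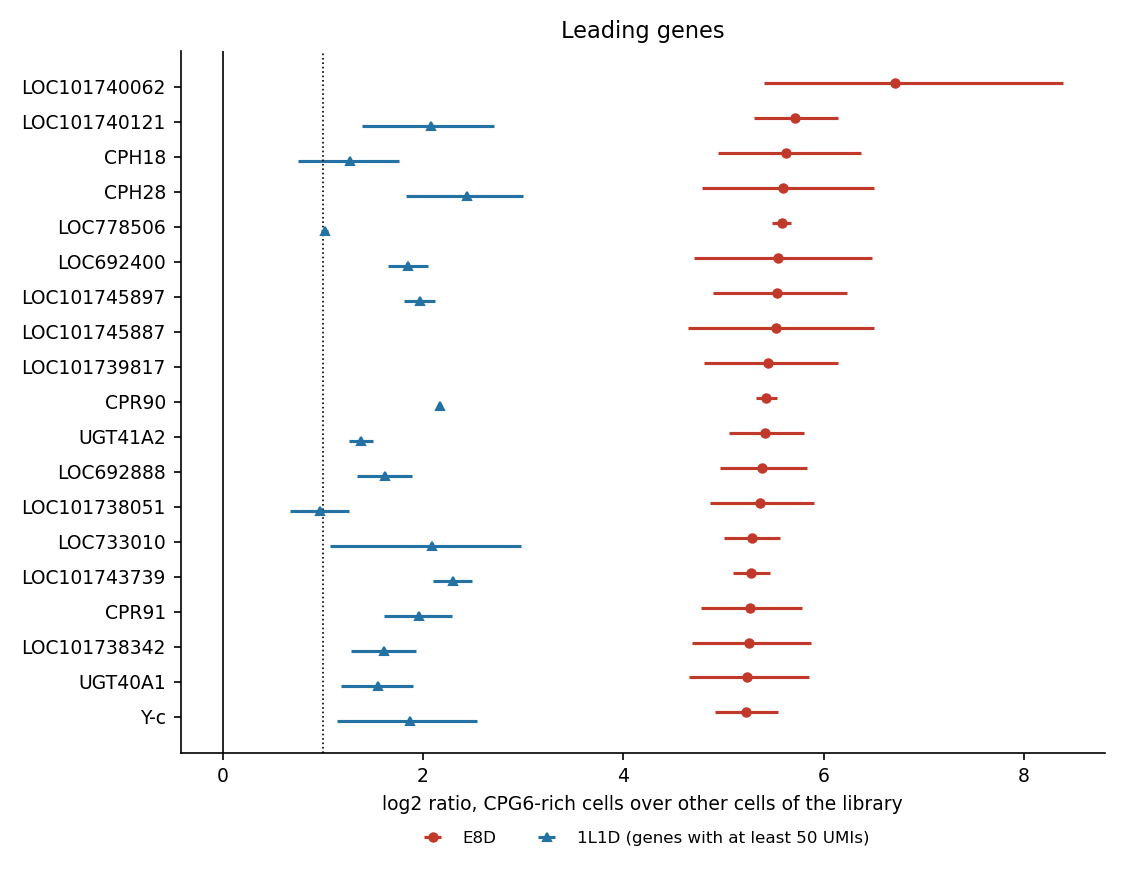
Log2 ratios with exact 95% intervals of 19 leading genes, in CPG6-rich cells over other cells of the same library, at E8D (red circles) and at 1L1D (blue triangles, genes with at least 50 UMIs there), with the 2-fold limit as a dotted line. All E8D values lie above 5, and the 1L1D values lie between 0.97 and 2.44.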

How the data were processed

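The authors counted UMIs per gene and barcode with Cell Ranger 3.1.0 (STAR aligner, assembly ASM15162v1) from Chromium 3' libraries and deposited whole counts without normalization, for 16880 genes. Each kept barcode was treated as a cell. Quality filters followed the study's methods, and doublets were limited only by the filter on UMIs per gene, with no doublet caller. The members of the group, the gene lists and the markers were chosen with earlier results of these data known. For each group of cells, a gene's summed count was scaled to CPM by the group's total, and ratios carry exact binomial 95% intervals. In these ratios, counts below 3 were raised to 3. Genes named were list members with at least 50 UMIs, the 20 highest and 10 lowest ratios and the 10 most abundant genes. The highest ratios were ranked among genes with at least 50 UMIs in CPG6-rich cells. The lowest were ranked among genes with at least 50 UMIs in other cells. Clustering used scanpy 1.11.5 with 2000 variable genes, 30 principal components, 20 neighbours and Leiden resolution 0.8 (seed 1). Factors came from edgeR 4.0.16 and DESeq2 1.42.0. The ratio procedure was tested on simulated data. Values of 1 gene are not reported here. Limits, filters, depth and scaling were varied. The depth behind each value is its UMI count, and intervals cover counting error only. Gene names and annotations came from the files and the study's annotation, and gene neighbours from the RefSeq table of ASM3026992v2.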

Additional observations from a re-analysis of the deposited data

Results flagged for a closer look

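Tub1, a beta-tubulin gene, differed in direction between the libraries: in CPG6-rich cells over other cells its log2 ratio was 1.04 (0.88 to 1.19) at E8D and -1.52 at 1L1D. It had 647 CPM in CPG6-rich cells and 316 CPM in other cells at E8D, and 316 CPM in CPG6-rich cells and 903 CPM in other cells at 1L1D. The difference between the libraries was not tested, since each stage is 1 library.

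Of the 471 E8D barcodes that the quality filters removed, 30 had at least 2% of UMIs from CPG6 + CPH4, with a median share of 3.80%. The mitochondrial limit removed 22 of them, with a median of 627 UMIs. The ratio filter removed the other 8, which had 18120 to 44437 UMIs and 118401 CPM of LOC101736156. These 8 were deeper than most of the 278 cells described.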

How the results depend on the processing

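The counts depended on the limit of the rule, on depth and on scaling. No paired analysis was possible because each stage was 1 library. The 278 CPG6-rich cells became 448 with a limit of 1%, 152 with 4% and 103 among barcodes with at least 1000 UMIs. The 1030 higher and 708 lower genes became 306 and 209 with every barcode thinned to 500 UMIs, 685 and 1283 with TMM factors, and 540 and 283 with barcodes of 5000 or more UMIs left out, an alternative chosen after seeing the data. With DESeq2 size factors 1270 genes were lower, and with equal weight for every barcode 460 were lower. With at least 10 or 200 UMIs per gene, 1627 or 367 genes were higher. The 15 higher of 18 tested cuticular genes became 9 of 10 after thinning, where 306 of all 2938 genes were higher. With at least 200 UMIs per gene 9 cuticular genes were higher, where 367 of all 2527 genes were. The 63 cells of 1L1D became 490 at 1% and 1 at 4%, and in that 1 cell 8 rather than 16 leading genes were higher. At 1LM the 0 cells became 1 at 1%. Resolution 1.6 gave 14 clusters in place of 7. Of 467 log2 ratios of 39 named genes under alternatives, 1 reversed: LOC101746790 was 0.19 with a limit of 1%, against -4.46. The 20 leading genes stayed between 3.38 and 7.54, and 43 of 62 counts stayed within 1.5 times.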

Other observations

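Of 36 genes looked up (the 20 leading genes, CPG6, CPH4, the most abundant nuclear genes and the called cuticular genes), 33 matched the RefSeq table of the later assembly ASM3026992v2. There 10 of them lay within 5 protein-coding genes of another one, among them CPH21 with CPH18, CPH28 with CPR55, LOC733010 with LOC101740062, and CPR91 with CPR90. In these pairs, CPR90 had 6617 CPM and CPR91 had 267 CPM in the CPG6-rich cells. The count of 10 has no share over other genes or families beside it, so nothing is read from it.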
